A study of Homo sapiens with 9 samples.

Results

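Nucleolar ribosome biogenesis genes encode the proteins that transcribe, cut, modify and fold ribosomal RNA and join it to ribosomal proteins. They were chosen by symbol: families of pre-rRNA processing factors (NOP, RRP, UTP, NOL), RNA polymerase I subunits, and factors such as FBL, NCL and BYSL. Every gene that matched was taken, but the rule was set with earlier results of these data known. On the array 38 such genes had a feature with a single platform symbol, of 14884 genes tested. Others that the rule names, such as NPM1 and DKC1, were not analysed here. Of the 38, 36 had 1 such feature; for BOP1 and NOL10 the brighter of theirs was used.

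The cells were BT-549, a human triple-negative breast cancer line, meaning that such tumours lack estrogen and progesterone receptors and extra HER2. They received a miR-150-5p mimic (a synthetic copy of the mature microRNA) at 50 nM, a non-specific negative control RNA at 50 nM, or the lipid transfection reagent alone (mock). All groups were exposed to Lipofectamine RNAiMAX and collected at 72 h, with 3 arrays each. It is a single cell line. Nothing in the labels states that a group's samples came from separate cultures, so p-values reflect only how far these 3 samples scattered, in part perhaps technically. In such bulk RNA, fewer cells of a kind and less RNA per cell cannot be told apart.

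Ribosomes are assembled in the nucleolus, where RNA polymerase I makes a long precursor RNA that carries the 18S, 5.8S and 28S rRNAs. A large particle, the small subunit processome, folds and cuts the 18S part, and further factors build the large (60S) subunit around the rest. Small nucleolar RNAs, carried in protein particles (snoRNPs), guide methylation and pseudouridylation of the rRNA. Growing cells make many ribosomes, and the transcription factor MYC, which binds E-box motifs in DNA, is known to drive genes of this pathway.

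Every value below is a log2 signal per feature made by the authors with RMA, and every difference is on the log2 scale, where 1 is a doubling. Array medians lay between 2.43 and 2.48 over all features, and between 3.31 and 3.36 over the genes tested. VIM and AXL, genes of mesenchymal breast lines, averaged 8.68 and 8.40 in mimic arrays, and neither passed the test against a control. The mesenchymal transcription factor genes SNAI2 and ZEB1 fell in the mimic arrays. SNAI2 was at -1.36 ± 0.14 against the negative control and -1.71 ± 0.14 against mock (adjusted p = 0.0018 and 0.00057), and ZEB1 at -0.36 ± 0.076 and -0.58 ± 0.076 (adjusted p = 0.036 and 0.0043). Their part in the members' values was not tested. The estrogen and progesterone receptor genes ESR1 and PGR (2.05 and 1.80) and the epithelial gene EPCAM (1.77) read below both kinds of array median. KRT18 (7.42) and KRT8 (3.73), keratins of luminal epithelium, GATA3 (5.43) and the leukocyte gene CD68 (6.49) read above both. KRT19 (2.65), also a keratin of luminal epithelium, lay between them, below the medians of the genes tested. The mean of 23 small nucleolar RNA features was 6.43, 5.95 and 6.75 in the mimic arrays, against 5.91, 6.83 and 5.87 in the negative control arrays and 5.62, 6.78 and 5.64 in the mock arrays. The groups overlapped in this measure, with mock 2 and negative control 2 highest in their groups.

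The members read higher as a body on the mimic arrays than on either set of control arrays. The median member lay 0.31, 0.28 and 0.17 above its own mean over the 9 arrays on mimic 1, 2 and 3. The 3 negative control arrays had -0.10, 0.04 and -0.16 for the same quantity, and the 3 mock arrays -0.22, -0.22 and -0.04. Of the 38 members, 37, 35 and 36 were above their own mean on the mimic arrays, against 7, 21 and 5 on the negative control arrays and 6, 4 and 16 on the mock arrays. Negative control 2 and mock 3 were the highest of their groups and mimic 3 the lowest of its own, so the groups came nearest to each other there, without overlapping between mimic and controls.

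**Figure D1:**
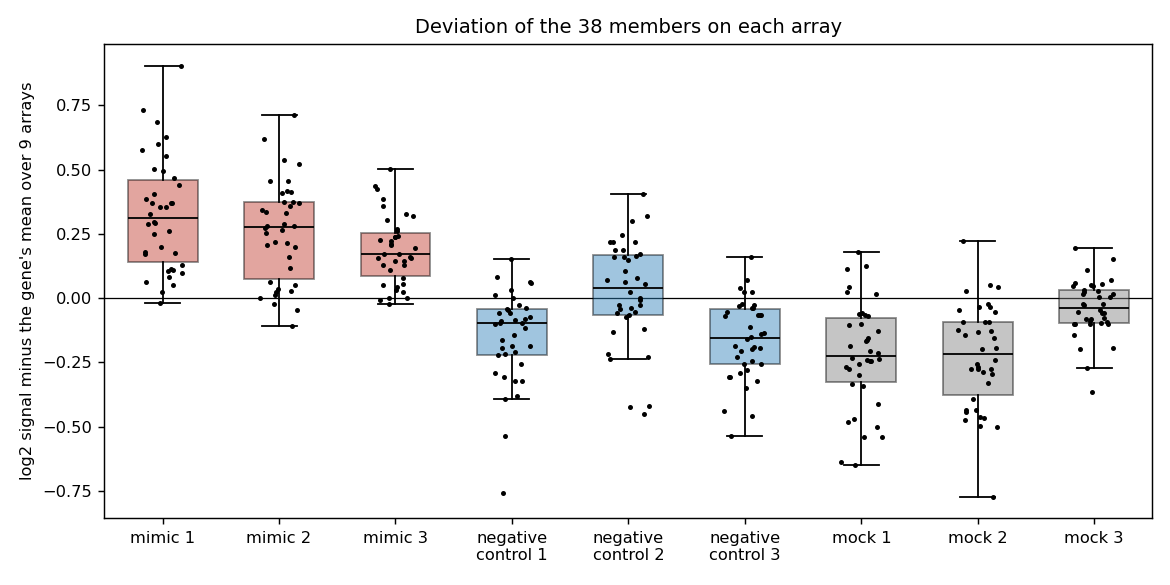
Deviation of each of the 38 members (points) from its own mean log2 signal over the 9 arrays, by array, with boxes from the lower to the upper quartile, the median as a line and whiskers to the last point within 1.5 box lengths. The medians of mimic 1, 2 and 3 (0.31, 0.28 and 0.17) lie above those of all 6 control arrays, of which negative control 2 is highest at 0.04.

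For 19 of the 38 members all 3 mimic arrays read above all 6 control arrays, against 5.76% of all genes tested and 10.4% of the 7442 genes at or above the median signal. No member had its mimic arrays below all 6. These 19 were BOP1, BYSL, FBL, GNL2, NCL, NOL6, NOLC1, NOP14, NOP2, NOP53, NOP58, NOP9, POLR1F, RRP1, RRP12, RRP1B, RRP36, RRS1 and SRM. All but POLR1H were at or above the median signal.

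Single members seldom passed the test across all genes. Against the negative control 3 of 38 rose (RRS1, NOL6 and RRP12), 0 fell and 35 did not pass. Of all genes tested 1.76% rose and 1.42% fell, and of genes at or above the median signal 3.37% and 2.47%. The members' median difference was 0.33, with 36 above 0 and 2 below, against a median of 0 over all genes and 0.05 over genes at or above the median signal, of which 58.1% were above 0. At an unadjusted p under 0.05 there were 24 members (63.2%), against 16.0% of all genes and 25.7% of those at or above the median signal. The arrays of mimic and negative control did not overlap, mimic above, for 20 members. This held for 10.3% of all genes and 17.7% of those at or above the median signal.

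Against mock 10 of 38 rose (RRP12, RRP1B, NOP2, RRS1, NOL6, SRM, BYSL, RRP1, GNL2 and BOP1), 0 fell and 28 did not pass. Of all genes 2.28% rose and 1.62% fell, and of genes at or above the median signal 4.37% and 2.84%. All 38 differences were above 0, with a median of 0.40, against 0 over all genes and 0.06 over genes at or above the median signal, of which 59.3% were above 0. An unadjusted p under 0.05 was reached by 25 members, against 17.5% of all genes and 28.5% of those at or above the median signal. The arrays were apart, mimic above, for 26 members, against 11.7% and 19.8%. The count of 10 that rose was not stable when single arrays were left out. It was 0 without mimic 1 or without mock 1, 1 without mimic 2, 4 without mimic 3 and 2 without mock 2. It was 13 without mock 3, 6 without negative control 1, 8 without negative control 2 and 7 without negative control 3. The median was less dependent on single arrays, from 0.34 to 0.43. The 3 genes that rose against the negative control were among the 10, and since both comparisons use the same mimic arrays this is no separate evidence.

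In the negative control against mock 0 of 38 members passed in limma, where 0.168% of all genes rose and 0.477% fell. At an unadjusted p under 0.05 there were 5 members, a share of 13.2% against 11.0% of all genes. The median difference was 0.06 (0.01 over all genes), with 28 above 0 (73.7%, against 52.1% of all genes) and 10 below. NOP2 and RRP7A had all negative control arrays above all mock arrays, which 6.21% of genes did, and NOL6 and NOL8 had them below, as did 5.78%. Apart from the higher share above 0, these shares are near those of the array as a whole.

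**Figure D2:**
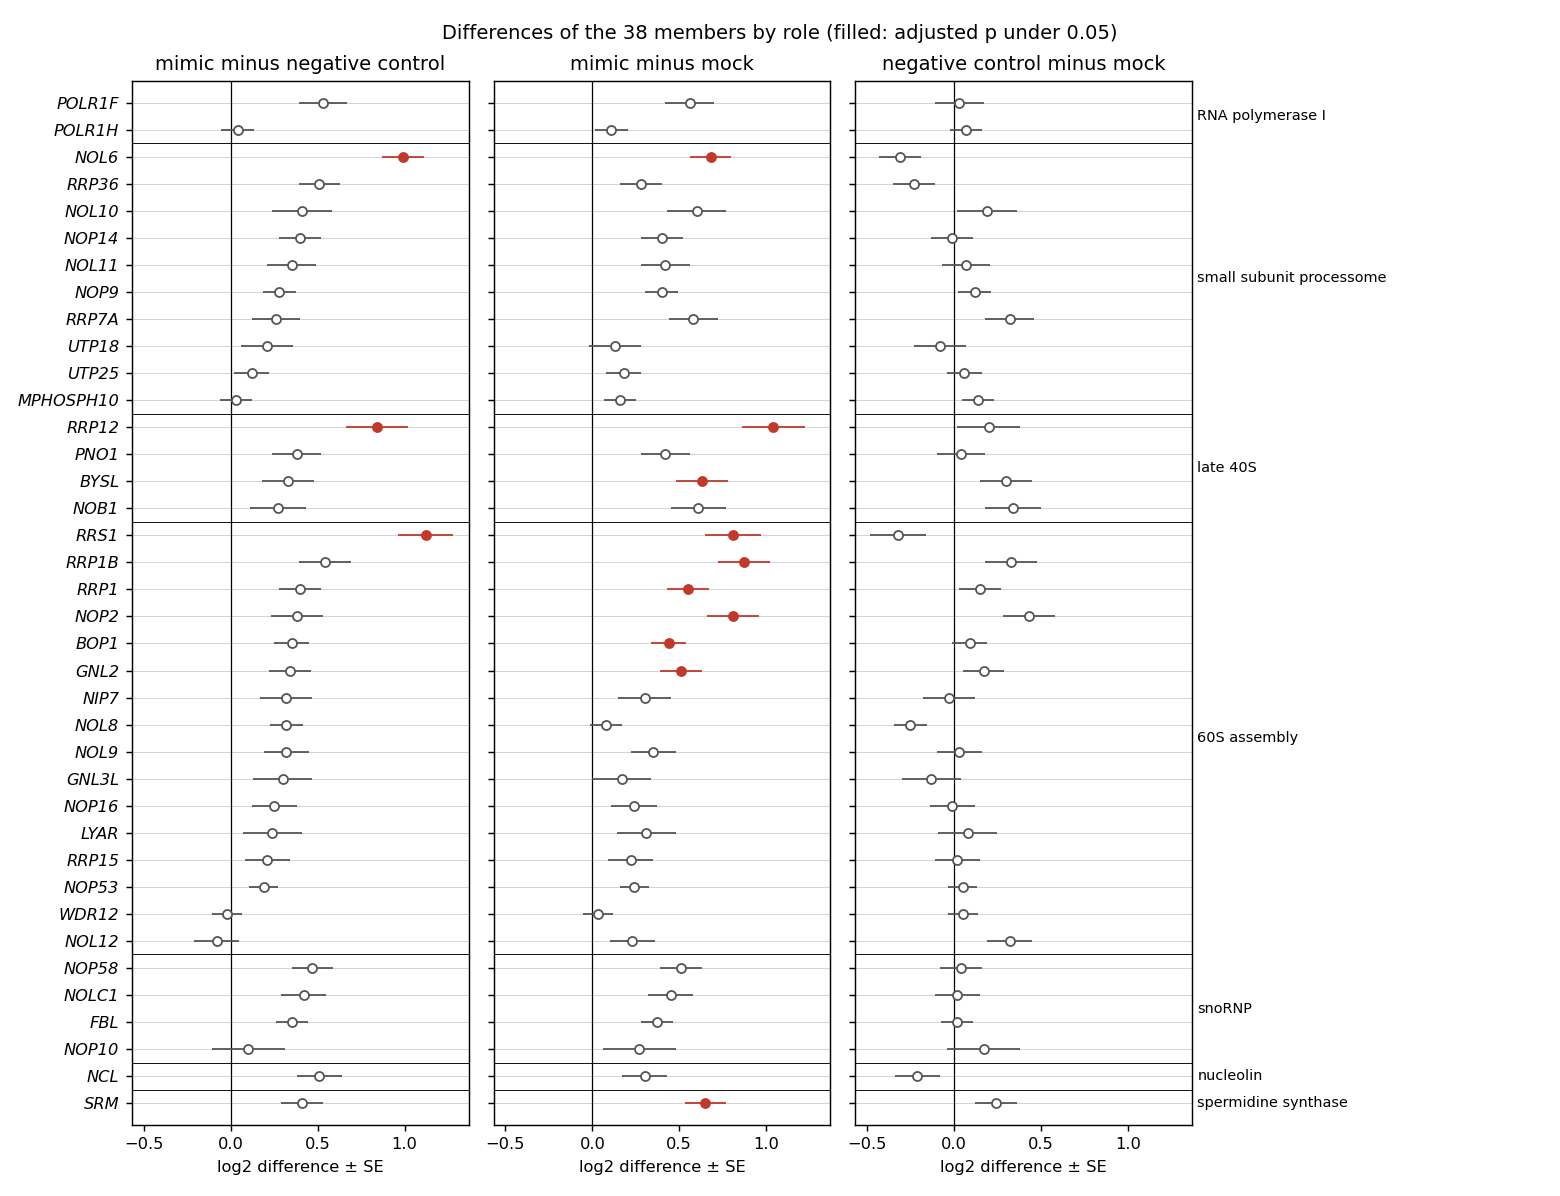
Log2 difference ± SE (limma, n = 3 arrays per group) of the 38 members in each comparison, grouped by role, filled where the adjusted p was under 0.05. Nearly all points of both mimic comparisons lie right of 0, with 3 and 10 filled, whereas the negative control against mock has points on both sides and 0 filled.

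Sequence before the start of these genes was looked at because many members moved the same way. RefSeq windows on GRCh38.p14, from 250 bases before a gene's start to 50 after it, were used for 30 of the 38 members (31 windows); BOP1, MPHOSPH10, NOL10, NOLC1, NOP58, RRP12, RRP1B and RRS1 are named only. The E-box CACGTG, which reads the same on both strands, was in 13 of the 30 (43.3%), against 11.0% of 10749 tested genes with a window and 13.1% of those 5894 at or above the median signal. The genes were BYSL, FBL, GNL2, LYAR, NOL6, NOL8, NOP10, NOP14, NOP2, PNO1, SRM, UTP18 and UTP25. NOP10 and UTP18 held 2 matches each. Of the 15 matches 9 began at or after the gene's start, and all lay between 199 bases before it and 35 after it.

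The motif did not separate changed from unchanged members cleanly. Of the 6 members with a window that rose against mock, NOL6, NOP2, SRM, BYSL and GNL2 held it and RRP1 did not. The 13 with the motif had a median difference of 0.40 against mock and 0.34 against the negative control. The 17 with a window and no match had 0.30 and 0.28. The 8 members without a window had 0.55 and 0.44, with 4 and 2 that rose, and their motif status is unknown here. A match is a string of letters and no evidence that a factor binds there. The windows of those 6 genes follow, 5′ to 3′ on the gene's strand, with CACGTG in capitals.
NOL6 (chr9:33473875-33474174, minus strand): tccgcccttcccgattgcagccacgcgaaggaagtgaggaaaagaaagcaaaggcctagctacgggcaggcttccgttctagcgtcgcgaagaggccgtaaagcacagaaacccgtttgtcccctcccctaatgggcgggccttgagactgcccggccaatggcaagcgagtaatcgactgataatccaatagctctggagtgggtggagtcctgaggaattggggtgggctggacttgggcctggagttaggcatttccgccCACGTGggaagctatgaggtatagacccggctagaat
NOP2 (chr12:6568242-6568541, minus strand): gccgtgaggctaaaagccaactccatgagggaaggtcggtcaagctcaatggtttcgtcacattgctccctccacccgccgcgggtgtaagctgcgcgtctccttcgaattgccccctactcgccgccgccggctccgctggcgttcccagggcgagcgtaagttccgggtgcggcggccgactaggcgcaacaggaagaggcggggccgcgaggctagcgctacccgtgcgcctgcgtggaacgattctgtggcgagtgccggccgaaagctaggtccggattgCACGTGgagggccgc
SRM (chr1:11059969-11060268, minus strand): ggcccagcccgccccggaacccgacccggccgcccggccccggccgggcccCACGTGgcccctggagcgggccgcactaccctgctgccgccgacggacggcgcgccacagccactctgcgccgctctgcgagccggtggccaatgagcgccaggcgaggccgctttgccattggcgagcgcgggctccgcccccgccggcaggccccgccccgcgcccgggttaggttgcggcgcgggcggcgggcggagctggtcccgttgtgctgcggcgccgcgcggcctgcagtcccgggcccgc
BYSL (chr6:41921249-41921548, plus strand): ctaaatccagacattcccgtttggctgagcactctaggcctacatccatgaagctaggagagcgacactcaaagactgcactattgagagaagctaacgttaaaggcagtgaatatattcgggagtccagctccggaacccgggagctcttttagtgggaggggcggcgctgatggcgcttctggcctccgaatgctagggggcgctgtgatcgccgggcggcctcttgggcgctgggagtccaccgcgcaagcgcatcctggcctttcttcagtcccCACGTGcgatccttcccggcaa
GNL2 (chr1:37595888-37596187, minus strand): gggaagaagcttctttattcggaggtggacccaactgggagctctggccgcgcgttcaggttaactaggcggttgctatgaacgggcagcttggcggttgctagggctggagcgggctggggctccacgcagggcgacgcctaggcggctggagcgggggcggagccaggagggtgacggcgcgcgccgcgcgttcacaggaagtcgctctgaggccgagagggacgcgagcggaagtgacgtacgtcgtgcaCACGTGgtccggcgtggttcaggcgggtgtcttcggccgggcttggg
RRP1 (chr21:43789327-43789626, plus strand): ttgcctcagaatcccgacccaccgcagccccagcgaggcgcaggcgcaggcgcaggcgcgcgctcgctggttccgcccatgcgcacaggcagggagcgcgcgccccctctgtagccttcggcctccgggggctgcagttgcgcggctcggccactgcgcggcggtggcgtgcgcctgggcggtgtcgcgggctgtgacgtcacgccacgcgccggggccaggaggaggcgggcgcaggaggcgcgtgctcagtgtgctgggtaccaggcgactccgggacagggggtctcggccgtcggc

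Another 10 motifs were searched on both strands, all chosen with the data known, and their matches may overlap. The ETS-type CTTCCG was in 15 of the 30 members, a share of 50.0%, against 30.4% of tested genes with a window and 39.5% at or above the median signal. The E-box variants CACGCG and CATGTG were in 4 and 0 members (13.3% and 0%, against 19.2% and 11.0% of tested genes). TATAAA, the TATA box, was in 1 (3.33%, against 11.1%), and CCAAT in 9 (30.0%, against 41.4%). GCGCGC was in 12 of the 30 members (against 31.1% of tested genes), CTCTTTCC in 1 (3.33%, against 3.89%) and TCTCGCG in 4 (13.3%, against 5.92%). ACTACAA was in 2 members (6.67%, against 3.73%) and GCCATNTTG in 3 (10.0%, against 4.91%).

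RNA polymerase I was represented by POLR1F and POLR1H, small subunits of the enzyme that transcribes rRNA genes. POLR1F read 5.19, 4.90 and 4.90 in mimic arrays, against 4.45, 4.63 and 4.33 in negative control and 4.17, 4.61 and 4.53 in mock arrays. The mimic arrays lay above all controls, but the differences missed the threshold, at 0.53 ± 0.14 against the negative control (adjusted p = 0.079) and 0.56 ± 0.14 against mock (adjusted p = 0.058). POLR1H read 3.03, 2.79 and 2.84 in mimic, 2.79, 2.98 and 2.77 in negative control and 2.77, 2.79 and 2.75 in mock arrays, and the groups overlapped.

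Of 10 members of the small subunit processome and early 18S maturation, 1 rose against each control and 9 did not pass. All 10 differences were above 0 in both comparisons, with medians of 0.32 against the negative control and 0.40 against mock. The gene was NOL6, a structural protein of the processome, related to yeast Utp22. It read 6.43, 6.42 and 6.22 in mimic arrays, against 5.26, 5.38 and 5.45 in negative control and 5.53, 5.56 and 5.95 in mock arrays. No mimic array overlapped a control array, and the negative control arrays lay lowest.

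NOL6 rose by 0.99 ± 0.12 against the negative control (adjusted p = 0.0037) and passed with each array left out in turn (highest adjusted p = 0.022). Against mock it rose by 0.68 ± 0.12 (adjusted p = 0.019), a call lost when mock 1, mock 2, mimic 1 or mimic 2 was left out (highest adjusted p = 0.082). Between the negative control and mock it was at -0.31 ± 0.12 (adjusted p = 0.39). The window of NOL6 shown above carries its E-box 13 bases after the gene's start.

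RRP36, a processome factor, had the next difference from the negative control, with 7.09, 7.20 and 7.24 in mimic, 6.82, 6.79 and 6.37 in negative control and 6.93, 6.82 and 6.93 in mock arrays. Its mimic arrays were above all others, by 0.51 ± 0.12 against the negative control (adjusted p = 0.053) and 0.28 ± 0.12 against mock (adjusted p = 0.26). RRP7A, of the UTP-C complex with NOL6, was at 0.58 ± 0.14 against mock (adjusted p = 0.053) and 0.26 ± 0.14 against the negative control (adjusted p = 0.43). NOP14, a processome scaffold protein, was at 0.40 ± 0.12 in each comparison (adjusted p = 0.13 against the negative control and 0.12 against mock).

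NOP9, an RNA-binding factor of 18S maturation, was at 0.28 ± 0.095 against the negative control and 0.40 ± 0.095 against mock (adjusted p = 0.17 and 0.051). NOL10, known through its yeast relative Enp2, was at 0.41 ± 0.17 and 0.60 ± 0.17 (adjusted p = 0.26 and 0.080), and its dimmer feature gave 0.28 and 0.05. NOL11, which joins transcription of rRNA to its processing, was at 0.35 ± 0.14 and 0.42 ± 0.14. Against the negative control the smallest difference (0.03 ± 0.091) was that of MPHOSPH10, the partner of the U3 small nucleolar RNA, which read 4.90, 4.90 and 5.02 in mimic, 4.94, 4.90 and 4.90 in negative control and 4.90, 4.82 and 4.61 in mock arrays. Its groups overlapped, as did those of UTP18, of the UTP-B complex, and UTP25.

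Late steps of the 40S subunit were covered by RRP12, BYSL, NOB1 and PNO1. Against the negative control 1 of 4 rose and against mock 2 of 4, with medians of 0.35 and 0.62. RRP12, which is needed for export of pre-ribosomal particles, read 6.39, 6.37 and 6.09 in mimic arrays, against 5.26, 5.59 and 5.47 in negative control and 5.17, 4.88 and 5.67 in mock arrays. The mimic arrays stood clear of all controls, and the mock arrays were the most scattered, with mock 3 highest.

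RRP12 rose by 1.04 ± 0.18 against mock (2.06-fold, adjusted p = 0.017), a call lost when mock 1, mimic 1 or mimic 2 was left out (highest adjusted p = 0.076). Against the negative control it rose by 0.84 ± 0.18 (adjusted p = 0.042), a call lost without mock 1 or without any negative control or mimic array (adjusted p up to 0.14). BYSL, bystin, the human counterpart of yeast Enp1, read 5.87, 5.71 and 5.89 in mimic, 5.40, 5.61 and 5.46 in negative control and 4.96, 5.06 and 5.56 in mock arrays. Its mimic arrays were above all 6 others, narrowly over negative control 2 and mock 3.

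BYSL rose by 0.63 ± 0.15 against mock (adjusted p = 0.047), a call lost without any single array other than mock 3 (adjusted p up to 0.15), and was at 0.33 ± 0.15 against the negative control (adjusted p = 0.31). NOB1, the endonuclease that makes the end of 18S rRNA, read 8.10, 8.06 and 7.86 in mimic, 7.60, 8.02 and 7.61 in negative control and 7.22, 7.25 and 7.73 in mock arrays. It was apart from mock (0.61 ± 0.16, adjusted p = 0.072) but overlapped the negative control, where array 2 was high (0.27 ± 0.16, adjusted p = 0.48). PNO1, the partner of NOB1, was at 0.38 ± 0.14 and 0.42 ± 0.14 against the negative control and mock.

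Of 16 members of 60S assembly, 1 rose against the negative control (RRS1) and 6 against mock (RRP1B, RRS1, NOP2, RRP1, GNL2 and BOP1), with medians of 0.32 and 0.30. RRS1, which with its partners brings the 5S particle into the pre-60S subunit, read 6.77, 6.38 and 6.37 in mimic arrays, against 5.10, 5.63 and 5.40 in negative control and 5.67, 5.53 and 5.89 in mock arrays. The mimic arrays were far from both controls, and negative control 1 was the lowest of all 9.

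RRS1 rose by 1.12 ± 0.16 against the negative control (2.18-fold, adjusted p = 0.0068) and passed with each array left out in turn (highest adjusted p = 0.030). Against mock it rose by 0.81 ± 0.16 (adjusted p = 0.028), a call lost when mock 1, mock 2 or any mimic array was left out (highest adjusted p = 0.098). Like NOL6 it read lower in the negative control than in mock, by a difference that did not pass (-0.32 ± 0.16, adjusted p = 0.52).

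RRP1B and RRP1 are paralogs, nucleolar proteins of pre-60S processing. RRP1B read 6.64, 6.33 and 6.32 in mimic, 6.02, 5.88 and 5.76 in negative control and 5.32, 5.49 and 5.86 in mock arrays. It rose by 0.87 ± 0.15 against mock (adjusted p = 0.014), lost when mock 1 or mimic 1 was left out (highest adjusted p = 0.062), and was at 0.54 ± 0.15 against the negative control (adjusted p = 0.091). RRP1 read 6.08, 5.89 and 5.82 in mimic, 5.59, 5.59 and 5.41 in negative control and 5.38, 5.18 and 5.59 in mock arrays. It rose by 0.55 ± 0.12 against mock (adjusted p = 0.037), lost without mock 1 or 2, negative control 1 or any mimic array (adjusted p up to 0.13). For both paralogs no mimic array overlapped a control array.

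NOP2, which methylates a cytosine of 28S rRNA, stepped through all groups without overlap. It read 7.14, 6.94 and 6.80 in mimic, 6.50, 6.72 and 6.51 in negative control and 5.91, 6.06 and 6.47 in mock arrays. It rose by 0.81 ± 0.15 against mock (adjusted p = 0.019), a call lost when mock 1, mock 2, mimic 1 or mimic 2 was left out (highest adjusted p = 0.082). It was at 0.38 ± 0.15 against the negative control (adjusted p = 0.24), and the negative control against mock gave 0.43 ± 0.15 (adjusted p = 0.30).

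GNL2, a GTPase of pre-60S export, read 8.61, 8.59 and 8.41 in mimic, 8.07, 8.31 and 8.22 in negative control and 8.05, 7.82 and 8.24 in mock arrays. It rose by 0.51 ± 0.12 against mock (adjusted p = 0.048), a call lost without any array other than mock 3 (adjusted p up to 0.16). BOP1, a scaffold of the PeBoW complex, read 6.64, 6.92 and 6.63 in mimic, 6.50, 6.34 and 6.31 in negative control and 6.21, 6.34 and 6.33 in mock arrays. It rose by 0.44 ± 0.10 against mock (adjusted p = 0.047), but missed without any single array (adjusted p from 0.055 to 0.16), and its dimmer feature gave 0.19. For GNL2 and BOP1 the mimic arrays still lay above all 6 controls.

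WDR12, the partner of BOP1 in the same complex, was flat. It read 6.22, 6.15 and 6.15 in mimic, 6.10, 6.33 and 6.15 in negative control and 6.07, 6.22 and 6.15 in mock arrays, with differences of -0.02 ± 0.086 and 0.03 ± 0.086 against the negative control and mock. NOL12, a pre-rRNA processing factor, was the other member below 0 against the negative control (-0.08 ± 0.13). The groups were apart for NOL8 against the negative control only (0.32 ± 0.093, adjusted p = 0.11; 0.08 ± 0.093 against mock), and for NOP53, which brings in the exosome, against both (0.19 ± 0.083 and 0.24 ± 0.083, adjusted p = 0.30 and 0.15). NOL9, GNL3L, LYAR, NIP7, NOP16 and RRP15 lay between 0.21 and 0.32 against the negative control and between 0.17 and 0.35 against mock, and none passed. The mimic arrays of NOL9 and NOP16 lay above all mock arrays but overlapped the negative control arrays.

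**Figure D3:**
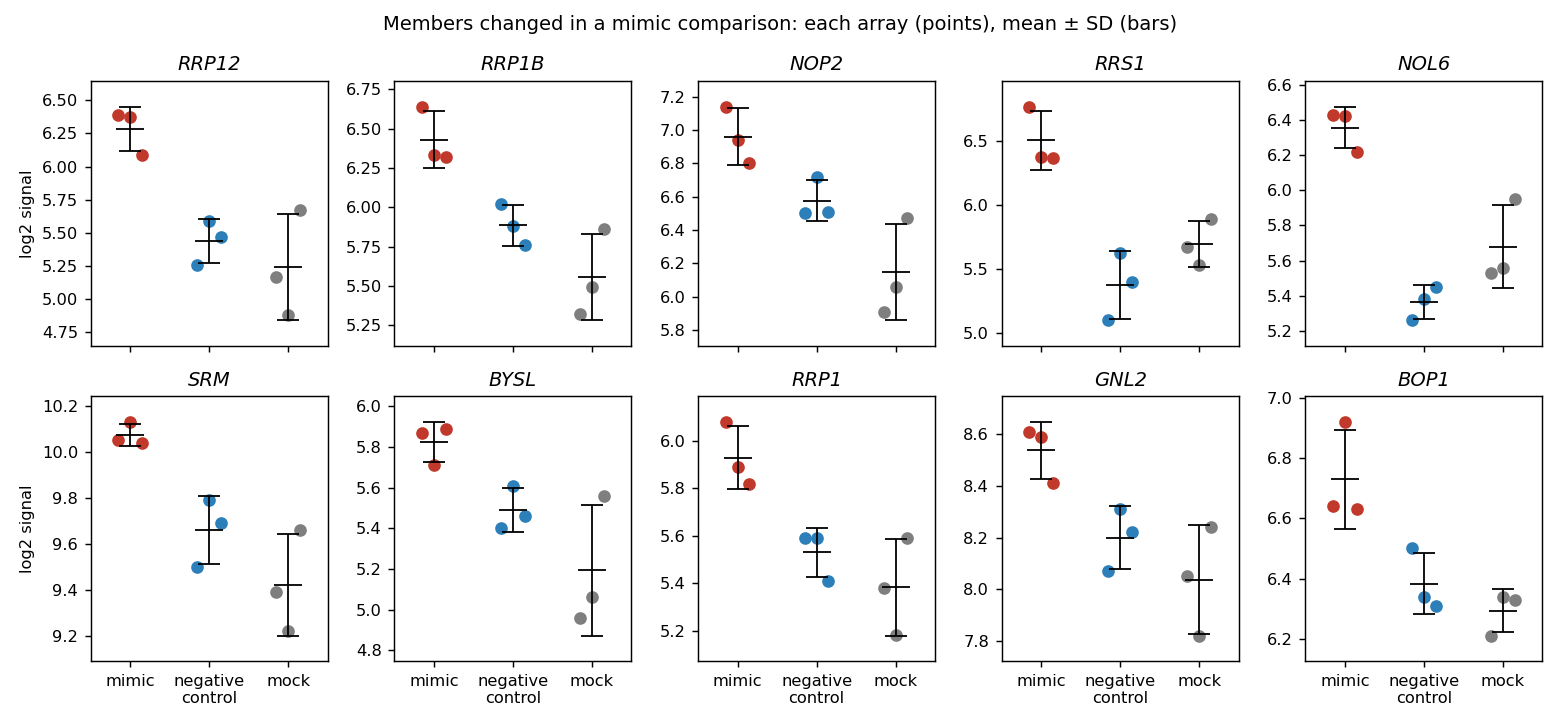
Log2 signal on each array (points) with mean ± SD (bars) for the 10 members that rose in a mimic comparison, ordered by their difference from mock, each panel with its own axis, which does not start at 0. In each panel the 3 mimic arrays lie above all 6 control arrays, and mock 3 is the highest mock array for all but BOP1.

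Of 4 snoRNP proteins, 0 rose in either comparison in limma, although 3 of 4 had an unadjusted p under 0.05 in each. NOP58, a core protein of the box C/D particle, read 8.83, 8.76 and 8.66 in mimic, 8.16, 8.50 and 8.16 in negative control and 8.36, 8.03 and 8.33 in mock arrays. Its mimic arrays were above all controls, by 0.47 ± 0.12 and 0.51 ± 0.12 against the negative control and mock (adjusted p = 0.078 and 0.054). FBL, fibrillarin, the methyltransferase of the same particle, read 8.82, 9.01 and 8.81 in mimic, 8.50, 8.58 and 8.50 in negative control and 8.40, 8.48 and 8.64 in mock arrays (0.35 ± 0.092 and 0.37 ± 0.092, adjusted p = 0.079 and 0.060). NOLC1, a snoRNP chaperone, was at 0.42 ± 0.13 and 0.45 ± 0.13 (adjusted p = 0.15 and 0.11).

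NOP10, of the H/ACA particle that makes pseudouridine, read 8.41, 8.21 and 8.20 in mimic, 7.77, 8.55 and 8.19 in negative control and 7.85, 8.37 and 7.78 in mock arrays. Its control arrays were the most scattered, and negative control 2 and mock 2, the arrays highest in small nucleolar RNA, were also highest in their groups for NOP10. With the mean of that RNA as a covariate in the fit, 6 members rose against the negative control and 10 against mock, with medians of 0.35 and 0.40.

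NCL, nucleolin, which binds nascent pre-rRNA, read 7.02, 7.09 and 6.90 in mimic, 6.69, 6.29 and 6.50 in negative control and 6.86, 6.47 and 6.78 in mock arrays. The mimic arrays were highest, narrowly over mock 1, with differences of 0.51 ± 0.13 and 0.30 ± 0.13 (adjusted p = 0.077 and 0.28). SRM, spermidine synthase, is an enzyme of polyamine synthesis and no nucleolar protein, included by the rule. It read 10.05, 10.13 and 10.04 in mimic, 9.50, 9.79 and 9.69 in negative control and 9.39, 9.22 and 9.66 in mock arrays. The mimic arrays overlapped neither control, and the controls overlapped each other. It rose by 0.65 ± 0.12 against mock (adjusted p = 0.020, and at most 0.078 when mock 1, mock 2 or any mimic array was left out, each of which ended the call) and was at 0.41 ± 0.12 against the negative control (adjusted p = 0.11).

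Other genes of the pathway, listed by role and not among the members, were set beside them. Of 23 further small subunit processome factors, 5 rose against the negative control, 0 fell and 18 did not pass, with a median of 0.30. They were DDX10 (0.74 ± 0.13), WDR46 (0.74 ± 0.15) and DDX52 (0.38 ± 0.079), an RNA helicase, and, named after their values were seen, HEATR1 (0.50 ± 0.11) and PWP2 (0.73 ± 0.17). Against mock 0 of 23 passed in limma, with all 23 above 0 and a median of 0.29. An unadjusted p under 0.05 was reached by 11 (47.8%), against 17.5% of all genes and 28.5% of those at or above the median signal. The count of 5 was 0 without negative control 3 and at most 3 without any other array. DDX10, also a helicase, read 5.61, 5.06 and 5.25 in mimic, 4.60, 4.56 and 4.54 in negative control and 5.14, 4.89 and 5.08 in mock arrays. Its negative control arrays were the lowest, and the mimic and mock arrays overlapped.

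Of 34 further 60S factors, 4 rose against the negative control and 7 against mock, 0 fell in either, and medians were 0.32 and 0.34. Without 1 array these counts were 2 to 7 against the negative control (lowest without negative control 1, mimic 2 or mimic 3) and 2 to 9 against mock (lowest without mock 1 or 2 or any mimic array). MAK16, of early pre-60S particles, read 8.34, 8.28 and 8.19 in mimic, 7.42, 7.66 and 7.39 in negative control and 7.53, 7.55 and 7.69 in mock arrays. It rose by 0.78 ± 0.096 and 0.68 ± 0.096 against the negative control and mock (adjusted p = 0.0036 and 0.0062). GRWD1, a chaperone of a ribosomal protein, read 6.07, 5.69 and 5.94 in mimic, 4.86, 5.14 and 4.98 in negative control and 5.01, 5.06 and 5.22 in mock arrays, rising by 0.91 ± 0.12 and 0.80 ± 0.12 (adjusted p = 0.0042 and 0.0073).

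MAK16 and GRWD1 passed in both comparisons without any single array, as NOL6 and RRS1 did against the negative control. URB2 (0.72 ± 0.12 and 0.66 ± 0.12) rose in both comparisons as well, as did LAS1L (0.43 ± 0.094 and 0.48 ± 0.094), an endonuclease, named after its values were seen. URB2 missed against the negative control without negative control 1 or mimic 2 or 3, and LAS1L without any of 7 arrays. Against mock both missed when mock 1, mock 2 or any mimic array was left out (highest adjusted p = 0.071 for URB2 and 0.093 for LAS1L).

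Of 12 further snoRNP factors 0 passed against the negative control in limma. At an unadjusted p under 0.05 there were 4 (33.3%), against 16.0% of all genes and 25.7% of those at or above the median signal. Against mock 1 rose, RUVBL2 (0.54 ± 0.12, adjusted p = 0.042, up to 0.15 without any of 7 arrays), an ATPase that helps to assemble these particles. Of 19 exosome and nuclease genes, which trim pre-rRNA, 0 passed against the negative control, with a median of 0.17. An unadjusted p under 0.05 was reached by 5 (26.3%), a share near that of genes at or above the median signal (25.7%). Against mock 2 rose, EXOSC4 (0.73 ± 0.14), a ring subunit of the exosome, and the exonuclease XRN2 (0.49 ± 0.11), with a median of 0.25. That count was 0 without mimic 1 or 3 and at most 1 without any other array. All 19 differences were above 0 in both comparisons.

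Of 5 subunits of RNA polymerase III, which makes 5S rRNA and tRNAs, 2 rose against each control, 0 fell and 3 did not pass. The median was 0.33 against the negative control, with 3 of 5 above 0, and 0.31 against mock, with 4 of 5 above 0. POLR3B, the second largest subunit, read 5.76, 5.42 and 5.61 in mimic, 4.53, 4.55 and 4.41 in negative control and 4.77, 4.53 and 4.35 in mock arrays. It rose by 1.10 ± 0.12 and 1.05 ± 0.12 (adjusted p = 0.0025 and 0.0027), and passed in both comparisons with each array left out in turn. POLR3E rose by 0.56 ± 0.11 and 0.69 ± 0.11 (adjusted p = 0.027 and 0.011). Against the negative control it missed when negative control 1, negative control 3 or any mimic array was left out (highest adjusted p = 0.11), and against mock when mimic 1 was (adjusted p = 0.053). POLR3GL and POLR3G, alternative forms of 1 subunit, were at -0.46 ± 0.20 and -0.01 ± 0.12 against the negative control (adjusted p = 0.29 and 0.98), and at -0.15 ± 0.20 and 0.31 ± 0.12 against mock (adjusted p = 0.79 and 0.20).

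In the MYC network 0 of 8 genes passed in either comparison in limma. Median differences were 0.17 against the negative control and 0.15 against mock, with 6 and 5 of 8 above 0. At an unadjusted p under 0.05 there were 4 against the negative control (50.0%, against 16.0% of all genes). Against mock there was 1 (12.5%, against 17.5% of all genes). Of genes at or above the median signal these shares were 25.7% and 28.5%. MYC itself read 7.29, 7.02 and 7.30 in mimic, 6.35, 7.05 and 6.86 in negative control and 6.63, 6.93 and 6.93 in mock arrays. Its mimic arrays lay above mock but overlapped the negative control, with differences of 0.45 ± 0.17 and 0.37 ± 0.17 (adjusted p = 0.24 and 0.31). MNT, a repressor of the same network, was at -0.43 ± 0.14 and -0.41 ± 0.14 (adjusted p = 0.16 in each). MXD1, also a repressor, went the other way, at 0.17 ± 0.081 and 0.15 ± 0.081 (adjusted p = 0.35 and 0.37). Its mimic arrays (3.39, 3.49 and 3.34) lay above all 6 control arrays. Any part of this network in the members' values was not tested. Of RNA polymerase I factors, RRN3, which recruits the enzyme, was at -0.04 ± 0.16 and 0.00 ± 0.16, and CAVIN1, a release factor with other roles at the membrane, at -0.51 ± 0.19 and -0.69 ± 0.19 (adjusted p = 0.22 and 0.083).

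**Figure D4:**
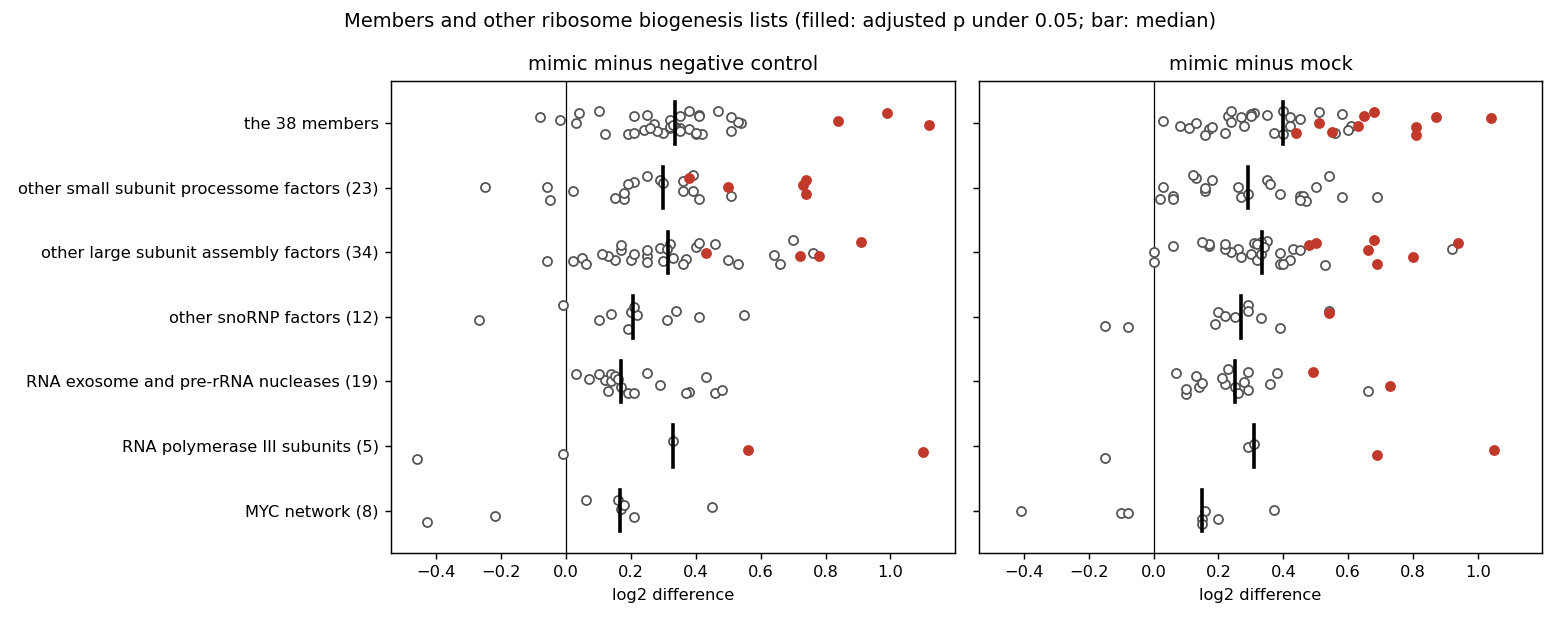
Log2 differences of the 38 members and of 6 other lists of the pathway (number of genes in brackets) in both mimic comparisons, with medians as bars and genes filled where the adjusted p was under 0.05. The medians of the members (0.33 and 0.40) lie beside those of the further small subunit (0.30 and 0.29) and 60S factors (0.32 and 0.34), and the MYC network has 0 filled points.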

How the data were processed

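Total RNA of 9 BT-549 samples, 3 each of mimic, negative control and mock, was read on Affymetrix Human Gene 2.0 ST arrays. Per the labels' protocols, the RNA was biotin-labelled with a FlashTag kit, a kind commonly used for small RNA. How it was applied to this whole-transcript array was not stated there, which limits what is known of how the signals arose. The deposited values are log2 signals that the authors made with RMA, per the submitters' processing notes. RMA corrects background, makes arrays alike in distribution and sums probes per feature, so a change shared by most genes would be removed. Its version was not given in the sources used here.

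Of 53617 features 16098 had 1 platform symbol, and the brightest per gene left 14884 genes, with no signal filter. Fits used limma 3.58.1 in R 4.3.3 on all 9 arrays (9.60 total degrees of freedom), two-sided, Benjamini-Hochberg adjusted over all genes, with 0.05 as threshold. The fit was tested on simulated data. Values are log2 ± SE, with n = 3 arrays per group, whose number limits the precision.

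Members and lists were chosen with earlier results of these data known. All members could be named. Values on every array were given for members that passed in a comparison and for those with the largest and smallest absolute difference from the negative control in each role, and for some others beside them. Of other lists up to 3 genes with the smallest p were named. Old symbols were updated through RefSeq.

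Array numbers were checked for pairing. Deviations of same-numbered negative control and mock arrays from their group means correlated across genes (r = 0.15, 0.23 and 0.15), on evidence of the values alone. Mimic arrays gave r from -0.29 to -0.054. The alternatives are given in the closing section.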

Additional observations from a re-analysis of the deposited data

How the results depend on the processing

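The members' median difference moved by less than the spread between arrays of a group (0.095) under all alternatives tried: second quantile normalization (0.26 against the negative control, 0.32 against mock), median centring, a signal filter, mean of a gene's features, array weights, the 6 arrays compared, replicate block, small nucleolar RNA covariate, and arrays left out. Without each array it was 0.30 to 0.40 against the negative control, 0.34 to 0.43 against mock, and 0.00 to 0.12 for negative control against mock. The count of members changed depended on the setting. Against the negative control it was 3, and 6 when only genes of at least median signal were fitted, 5 with array weights, 6 with the covariate, and 2 to 3 without each array. Against mock it was 10, and 16 with the signal filter, 16 with array weights, 6 quantile-normalized once more, 3 in a fit on the 6 arrays compared, 0 at an adjusted p under 0.01, and 0 to 13 without each array. With a replicate block it was 2 against the negative control and 4 against mock. Whether the numbers pair the samples was not settled: same-numbered control arrays correlated positively, and mimic arrays negatively with same-numbered controls. Chosen after seeing the data, a block on the 6 arrays compared gave 0 in both, and leaving out mock 2 and negative control 2 together gave 4 against the negative control and 2 against mock. For negative control against mock it was 0 in all of them, block included. No member that passed turned its direction.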
